A study of Mus musculus with 9 samples.

Results

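The *Sox* genes encode transcription factors that bind DNA through an HMG box, and chromatin accessibility was examined around 8 of them in mouse mesenchymal progenitor cells (MPCs) with and without ATRX: *Sox4*, *Sox5*, *Sox6*, *Sox8*, *Sox9*, *Sox11*, *Sox12* and *Sox13*. Peaks of open chromatin from 9 ATAC-seq libraries were merged into 97338 consensus regions, each with a peak in at least 2 of 3 libraries of any line, and a region belonged to a gene when the nearest protein-coding start site was that of the gene. By this rule 295 of the 97338 regions were members, with 118 for *Sox9*, 78 for *Sox6*, 40 for *Sox5*, 36 for *Sox4*, 10 for *Sox13*, 7 for *Sox8* and 3 each for *Sox11* and *Sox12*. All libraries came from C3H/10T1/2 cells, an established mouse mesenchymal line, with 3 libraries of each line. The wild type (WT) line had received an empty Cas9 vector with no guide. The *Atrx* knockout (KO) lines B10 and G7 were made with different guides and each is 1 clone, so that an effect of the knockout and a property of the clone cannot be told apart within 1 line. ATAC-seq cuts open DNA with a transposase, and each library was given to a peak caller on its own.

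SOX proteins bend DNA and act with partner factors, and they set cell fate in many lineages. The SoxC group (*Sox4*, *Sox11*, *Sox12*) is known for the survival and growth of progenitor cells, the SoxD group (*Sox5*, *Sox6*, *Sox13*) lacks a transactivation domain of its own, and the SoxE group includes *Sox8* and *Sox9*. In the mesenchyme, SOX9 commits progenitors to cartilage and works with SOX5 and SOX6 on the genes of cartilage matrix. *Sox9* lies in a gene desert and is known for enhancers very far from its start site.

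The DNA under 8 of the regions that carry the results is shown first, as 121 bases of the plus strand of mm10 centred on the summit of the highest-ranked peak. Of these, 6 lie in regions with peaks in both KO clones and in no WT library, and the regions 757.9 kb upstream of *Sox9* and 101.0 kb downstream of a *Sox5* start site held a peak everywhere and ranked higher in both clones. Capitals mark exact matches, on either strand, to the SOX core ACAAAG, its variant AACAAT, or the AP-1-like pattern TGANTCA, where N is any base.
Sox9 757.9 kb upstream, chr11:112023551-112023671: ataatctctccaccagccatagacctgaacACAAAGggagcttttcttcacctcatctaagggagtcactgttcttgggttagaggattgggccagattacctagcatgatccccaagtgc
Sox9 698.1 kb upstream, chr11:112083881-112084001: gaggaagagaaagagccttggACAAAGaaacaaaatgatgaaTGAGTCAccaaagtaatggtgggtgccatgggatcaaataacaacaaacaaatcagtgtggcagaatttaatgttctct
Sox9 663.9 kb upstream, chr11:112117888-112118008: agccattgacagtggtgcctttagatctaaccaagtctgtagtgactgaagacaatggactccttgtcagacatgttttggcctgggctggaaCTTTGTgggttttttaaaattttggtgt
Sox9 530.8 kb upstream, chr11:112250929-112251049: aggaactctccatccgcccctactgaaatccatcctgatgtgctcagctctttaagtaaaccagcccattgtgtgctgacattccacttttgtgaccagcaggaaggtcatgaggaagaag
Sox9 457.1 kb upstream, chr11:112324918-112325038: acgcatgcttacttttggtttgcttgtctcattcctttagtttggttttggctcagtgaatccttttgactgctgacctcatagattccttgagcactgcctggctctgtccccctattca
Sox9 69.9 kb upstream, chr11:112711758-112711878: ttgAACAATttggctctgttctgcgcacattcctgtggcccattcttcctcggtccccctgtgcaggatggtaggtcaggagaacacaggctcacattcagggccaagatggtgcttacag
Sox6 5.6 kb upstream, chr7:115866347-115866467: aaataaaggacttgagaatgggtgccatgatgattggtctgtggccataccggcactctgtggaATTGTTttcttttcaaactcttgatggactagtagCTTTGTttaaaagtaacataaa
Sox5 101.0 kb downstream, chr6:143845865-143845985: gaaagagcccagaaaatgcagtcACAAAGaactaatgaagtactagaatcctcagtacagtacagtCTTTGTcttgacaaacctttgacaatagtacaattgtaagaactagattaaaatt

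The letters were counted over windows of 201 bases around the summits. ACAAAG was found in 63 of 295 member regions (21.4%) and in 17.5% of all consensus regions, AACAAT in 40 (13.6%) against 9.81%, and TGANTCA in 63 (21.4%) against 22.3%. Among the genes with at least 36 regions, TGANTCA was found in 38 of 118 regions of *Sox9* (32.2%) and in 10 of 78 of *Sox6* (12.8%). AACAAT was found in 12 of 40 regions of *Sox5* (30.0%) and in 10 of 118 of *Sox9* (8.47%). Most member regions were far from a start site, and consensus regions over 50 kb away as a whole held ACAAAG in 20.4%, AACAAT in 13.1% and TGANTCA in 27.4%. A match describes the letters and does not show a bound factor.

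Member regions lay a median of 195 kb from the start site against 20.9 kb for all consensus regions, and 234 of 295 (79.3%) lay over 50 kb away against 29.8%. By annotation, 147 were intergenic, 113 intronic, 26 at a promoter, 5 exonic and 4 in a UTR. The genes differed in reach. The *Sox9* regions extended to 849.9 kb, those of *Sox6* to 432.7 kb, of *Sox5* to 387.2 kb, of *Sox4* to 345.6 kb and of *Sox11* to 261.6 kb, while no region of *Sox8*, *Sox12* or *Sox13* lay over 67.2 kb away. The distance is to the nearest protein-coding start only, and when start sites of every gene type competed, 2 of the 118 *Sox9* regions and 99 of the 295 member regions in all kept a *Sox* member as the nearest gene.

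Across the series the libraries held 76385 to 88535 peaks, and 48.7% of consensus regions had a peak in all 9. The lists hold no read counts, so depth is unknown and a missing peak is one that was not detected. A peak over the *Atrx* start site was present in all 9 libraries, which does not report on the protein. Start sites of 9 of 12 mesenchymal markers held a peak in every library, those of *Ly6a*, *Thy1* and *Nt5e* held none, and none of 8 markers of blood, endothelium, epithelium, glia, muscle or pluripotent cells held one. Replicate 1 libraries stood apart from replicates 2 and 3 in every line. The labels do not say whether replicates were separate cultures, so p-values measure the spread between these libraries, which may be technical.

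To ask whether loss of ATRX went with a change in detected regions, the member regions with a peak were counted in each library. WT libraries held a peak in 198, 192 and 192 of the 295 regions, B10 libraries in 243, 253 and 242, and G7 libraries in 223, 210 and 209. Every KO library thus lay above every WT library, and the B10 libraries above those of G7. This order is partly set by the consensus rule, which also kept regions with peaks in a KO clone and none in WT. Of the 295, 49 held peaks in at least 2 B10 libraries and in no WT library, and 5 were the reverse. For G7 the counts were 31 and 9. The same rule made the set of all consensus regions. Over all consensus regions the shares were 74.6%, 76.1% and 74.8% in WT, 78.0%, 82.6% and 78.4% in B10 and 74.2%, 75.7% and 74.1% in G7, so there the G7 libraries were not above WT. Near *Sox9*, 70, 73 and 76 of 118 regions held a peak in WT, 96, 99 and 94 in B10 and 93, 87 and 91 in G7. Near *Sox6*, 54, 50 and 49 of 78 regions held one in WT, 67, 68 and 62 in B10 and 60, 56 and 58 in G7. For *Sox4* the G7 libraries (25, 27 and 23 of 36) did not exceed WT (28, 27 and 25).

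**Figure D1:**
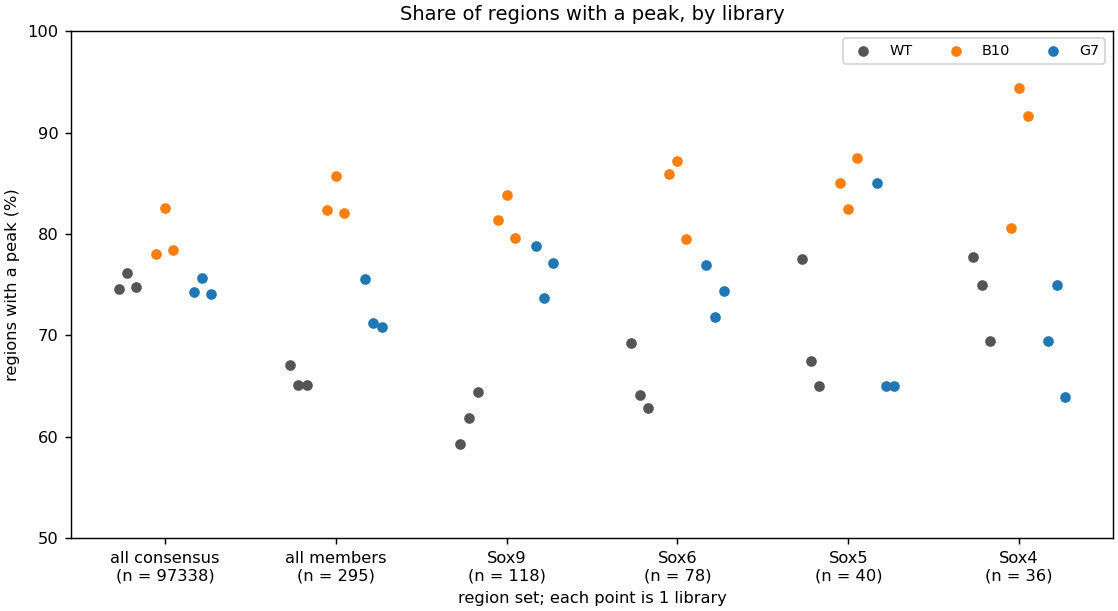
Share of regions with a peak (%, axis from 50 to 100) in each of the 9 libraries, for all consensus regions, all member regions and the regions of the 4 genes with the most regions; each point is 1 library and n is the number of regions. For the members, the WT libraries sit at 65.1% to 67.1%, G7 at 70.8% to 75.6% and B10 at 82.0% to 85.8%, while over all consensus regions WT and G7 overlap.

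Gain in a clone meant a peak in 2 or 3 of its libraries and in 0 of WT. Loss meant a peak in 2 or 3 WT libraries and in 0 of the clone. In B10, 49 member regions were gained (16.6%, against 10.4% of all consensus regions) and 5 were lost (1.69% against 7.58%). In G7, 31 were gained (10.5% against 5.69%) and 9 were lost (3.05% against 7.42%). The WT libraries were shared by these comparisons. In both, 17 regions were gained (5.76% against 2.97%) and 3 were lost (1.02% against 4.36%). *Sox9* supplied 11 of the 17, and among the 177 regions of the other genes 6 were gained in both clones (3.39%), close to the background. Among regions over 50 kb from a start site, which as a whole were gained in both at 3.81%, the share was 6.84% for the members. In B10 alone the members at this distance were gained at 17.1%, close to the 16.0% of all such regions. In G7 the shares gained were 10.7% and 6.64%. The members lost 1.71% in B10 and 2.14% in G7, against 8.42% and 9.12% of all such regions. Between the clones, 30 member regions held a peak in B10 and none in G7 (10.2% against 8.25%), and 11 the reverse (3.73% against 4.24%).

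These counts moved with single libraries. With 1 library left out, presence asked for a peak in both of the remaining libraries of that line, and absence for no peak in either. The share over all consensus regions moved with the same libraries and is given beside each count. Gains in both clones numbered 29 without WT replicate 1 (5.75% of all regions), 11 without G7 replicate 1 (1.94%) and 9 without G7 replicate 2 (1.96%). Losses in both numbered 1 without WT replicate 2 or 3 (2.14% and 2.20% of all regions) and 5 without G7 replicate 3 (4.81%). In B10, gains numbered 77 without WT replicate 1 (15.6%), 32 without B10 replicate 1 (6.65%) and 30 without B10 replicate 2 (6.09%). Losses in B10 numbered 3 without WT replicate 2 or 3 (3.88% and 4.02%) and 10, 11 and 8 without B10 replicate 1, 2 or 3 (8.95%, 9.87% and 9.07%). In G7, gains numbered 15, 20 and 20 without G7 replicate 1, 2 or 3 (3.49%, 3.26% and 3.42%). Losses in G7 numbered 5 without WT replicate 3 (3.97%) and 17 and 16 without G7 replicate 1 or 2 (9.05% and 9.79%).

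*Sox9*, the master regulator of cartilage, held most of the shared gains. Of its 118 regions, 20 were gained in B10, 18 in G7 and 11 in both (9.32%), and 1 was lost in B10 and 0 in G7. Of the 11, 10 were among the 79 regions upstream of the gene and 1 among the 38 downstream, and all lay over 50 kb from its start. Of the 692 other consensus regions within 5 Mb, 7.37% were gained in B10, 3.76% in G7 and 14 in both (2.02%), and 4.05% were lost in both. These neighbours were not matched for distance from a start, and the difference between *Sox9* and them was not tested. Most *Sox9* regions lay over 50 kb from a start. All consensus regions at that distance were gained at 16.0% in B10, 6.64% in G7 and 3.81% in both. The *Sox9* share gained in B10 was close to that background, while its shares in G7 and in both clones were above it. These differences were not tested either. The count gained in both was 5 without G7 replicate 2 (1.96% of all consensus regions) and 17 without WT replicate 1 (5.75%). At a −log10 q-value of at least 5 on the side with peaks, it was 4 of the 118 (1.77% of all consensus regions). It was 0 when start sites of every gene type competed, where only 2 regions stayed with *Sox9*. Gains of *Sox9* regions in B10 rose to 31 without WT replicate 1 (15.6% of all regions) and fell to 13 without B10 replicate 1 (6.65%). In G7 they fell to 8, 11 and 9 when G7 replicate 1, 2 or 3 was left out (3.49%, 3.26% and 3.42%). With B10 replicate 1 or 2 left out, 3 and 5 *Sox9* regions were lost in B10 (8.95% and 9.87% of all regions). Leaving out G7 replicate 1, 2 or 3 gave 4, 3 and 1 lost in G7 (9.05%, 9.79% and 8.77%). When G7 replicate 3 was dropped, 1 was lost in both (4.81%).

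**Figure D2:**
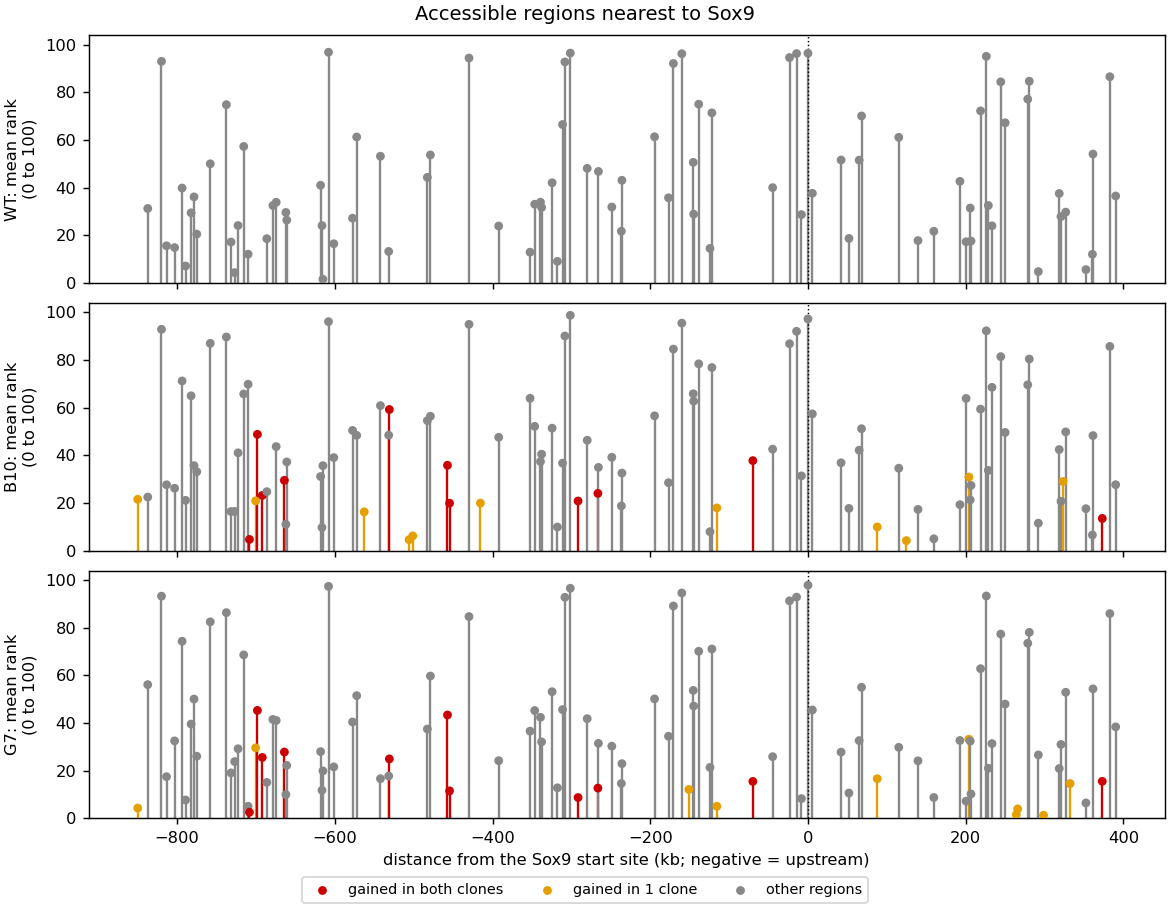
Accessible regions nearest to *Sox9* by distance from its start site (kb, negative is upstream), in WT, B10 and G7; the height of each stem is the mean rank over the libraries with a peak (0 to 100, 100 the strongest peak of a library), red marks regions gained in both clones, orange those gained in 1 clone and grey the others, and a region with no peak in a line is not drawn there. The 11 red stems stand mostly upstream at low and middle ranks, while the region at the start site is never below rank 95.3 in any library.

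Strength was read from the rank of a peak, which is the percentile of its −log10 q-value within its own library, from 0 to 100. A cluster of 4 gained regions lay 663.9 to 708.2 kb upstream of *Sox9*. The strongest, 698.1 kb upstream (chr11:112083240-112084107, intergenic), ranked 33.6, 59.1 and 53.7 in B10 and 46.0 and 44.6 in G7 replicates 2 and 3. It carries both ACAAAG and an AP-1 match in the window printed above. The region 663.9 kb upstream (chr11:112117878-112118303, in an intron of *Gm11680*) ranked 39.3, 27.8 and 21.5 in B10 and 33.0, 25.5 and 24.9 in G7. The region 691.9 kb upstream ranked 19.5, 22.6 and 27.5 in B10 and 42.4 and 8.68 in G7 replicates 1 and 2. That at 708.2 kb was near the detection limit, with ranks of 4.66 and 4.78 in B10 replicates 2 and 3 and of 2.59 and 2.50 in G7 replicates 1 and 2.

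Nearer to *Sox9*, the region 530.8 kb upstream (chr11:112250753-112251396) was seen in each of the 6 KO libraries, at ranks of 64.8, 58.3 and 54.6 in B10 and 23.1, 29.3 and 22.5 in G7. All B10 values lay above all G7 values here. The region 457.1 kb upstream (chr11:112324694-112325108) was seen in each of the 6 as well, with ranks of 43.5, 41.4 and 22.7 in B10 and 45.0, 48.5 and 36.6 in G7, and the clones overlapped. A further region 454.5 kb upstream ranked 23.9, 10.8 and 25.1 in B10 and 14.8, 9.57 and 10.2 in G7. The regions 291.6 and 266.4 kb upstream each lacked a peak in G7 replicate 1. The former ranked 24.2 and 17.5 in B10 replicates 1 and 3 and 5.91 and 11.6 in G7, and the latter 12.4, 34.7 and 25.1 in B10 and 16.6 and 8.73 in G7.

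The gained region closest to *Sox9* lay 69.9 kb upstream (chr11:112711359-112712310), at an annotated promoter of the transcript *BC006965*. It ranked 46.3, 38.7 and 28.5 in B10 and 25.1 and 5.91 in G7 replicates 1 and 2. The only shared gain downstream lay 373.1 kb away in an intron of *2610035D17Rik*, with ranks of 30.9, 7.48 and 2.21 in B10 and 24.5, 12.4 and 9.73 in G7. The highest rank among the 11 was 64.8, whereas 6 *Sox9* regions held ranks over 90 in all 9 libraries.

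**Figure D3:**
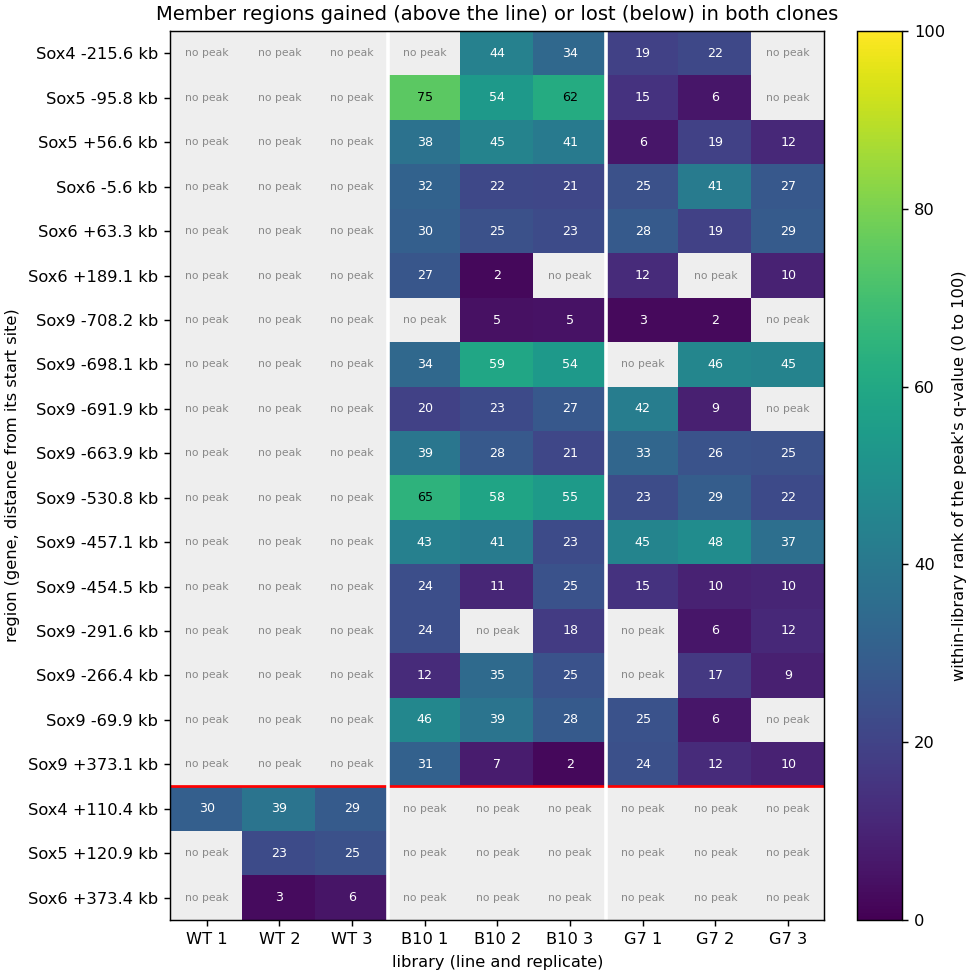
The 17 member regions gained (above the red line) and the 3 lost (below it) in both clones, 1 row each, labelled by gene and distance from its start site in kb, against the 9 libraries; colour and number give the within-library rank (0 to 100) and grey cells marked "no peak" hold none. The highest rank among the gained regions is 74.9, at the *Sox5* region 95.8 kb upstream in B10 replicate 1.

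In the SoxD group, *Sox5* gained 2 of its 40 regions in both clones (5%, against 2.97% of all consensus regions), both within its introns. The region 95.8 kb upstream of one of its start sites (chr6:144042858-144043532) ranked 74.9, 53.9 and 61.7 in B10 and 14.7 and 5.91 in G7 replicates 1 and 2. The region 56.6 kb downstream of a start (chr6:144152126-144152827) was found in each of the 6 KO libraries and ranked 37.7, 44.7 and 41.3 in B10 and 6.10, 19.3 and 11.6 in G7. In both, every B10 value lay above every G7 value. Of the 40 *Sox5* regions, 7 were gained in B10 (17.5%) and 3 in G7 (7.5%), near the shares of the other regions within 5 Mb (16.6% and 7.39%).

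*Sox6* gained 3 of its 78 regions in both clones (3.85%, near the 2.97% of all consensus regions). All 3 lie within the gene. The intronic region 5.6 kb upstream of a start (chr7:115865408-115866714) ranked 31.5, 21.6 and 21.1 in B10 and 24.8, 41.5 and 27.5 in G7. The region 63.3 kb downstream (chr7:115597333-115599031) overlaps an exon of *Sox6*. It lies within 3 kb of the start of a *Sox6* transcript not annotated as protein-coding. Its ranks were 30.1, 24.9 and 22.7 in B10 and 28.3, 19.3 and 28.5 in G7. Each of these 2 regions was found in all 6 KO libraries, where the clones overlapped in rank. The region 189.1 kb downstream, over a UTR of the gene, was weaker, with ranks of 26.7 and 1.97 in B10 replicates 1 and 2 and of 12.1 and 9.55 in G7 replicates 1 and 3. *Sox6* had 14 gains in B10 (17.9%) and 7 in G7 (8.97%), where the other regions within 5 Mb had 9.68% and 3.83%. Those neighbours were not matched for distance from a start, and the difference from them was not tested. Of the *Sox6* regions, 70.5% lay over 50 kb from a start, and all consensus regions at that distance had 16.0% and 6.64%.

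*Sox4* gained 1 of 36 regions in both clones (2.78%, near the 2.97% of all consensus regions). It lay 215.6 kb upstream (chr13:29169269-29169703), with ranks of 43.8 and 33.8 in B10 replicates 2 and 3 and of 19.2 and 21.7 in G7 replicates 1 and 2. The 3 regions lost in both clones belonged to *Sox4*, *Sox5* and *Sox6*. That of *Sox4*, 110.4 kb downstream in an intron of *2610307P16Rik* (chr13:28842893-28843296), ranked 30.4, 38.6 and 28.8 in WT. The *Sox5* region 120.9 kb downstream ranked 22.9 and 24.8, and the *Sox6* region 373.4 kb downstream 3.12 and 5.69, in WT replicates 2 and 3. All 3 were weak, and only that of *Sox4* was seen in every WT library.

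The start sites themselves fell into separate kinds. Those of *Sox4*, *Sox6* and *Sox9* held a peak in all 9 libraries. At *Sox9* (chr11:112781882-112783136) ranks were 97.4, 95.3 and 96.7 in WT, 96.9, 97.2 and 97.8 in B10 and 97.9, 97.5 and 98.2 in G7. At *Sox4* (chr13:28951807-28954046) they were 87.1, 81.5 and 79.1 in WT, 90.2, 87.5 and 85.4 in B10 and 87.5, 82.5 and 82.4 in G7. At the 1 start site of *Sox6* with a peak (chr7:115824436-115826353) they were 90.0, 88.6 and 79.7 in WT, 91.5, 90.5 and 88.3 in B10 and 88.2, 88.7 and 86.6 in G7. The lines overlapped at *Sox4* and *Sox6*, and at *Sox9* the G7 libraries lay just above WT. In the fit over all regions with a peak everywhere (limma), B10 minus WT was 0.81 ± 1.05 points at *Sox9* (adjusted p = 0.676), 5.12 ± 2.54 at *Sox4* (0.238) and 4.01 ± 2.69 at *Sox6* (0.382), and G7 minus WT was 1.38 ± 1.05 (0.484), 1.57 ± 2.54 (0.772) and 1.73 ± 2.69 (0.760), where ± is the standard error. With the replicate number as a block, *Sox4* passed in B10 (adjusted p = 0.0294; 0.0294 to 0.734 over the 18 alternatives).

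At the other members, the start site differed between lines in presence. A broad peak over the start of *Sox12*, the least potent SoxC activator, was found in the B10 libraries alone (chr2:152396126-152399135, 3010 bp), with ranks of 69.2, 72.2 and 64.3. The start of *Sox13*, a SoxD gene known from lymphocyte development, also held a peak in B10 alone, with ranks of 30.1, 24.9 and 22.7 (chr1:133423710-133424416). The start of *Sox8* held one in G7 alone, with ranks of 13.4, 18.2 and 12.4 (chr17:25570682-25570934). In each case the other 6 libraries held no peak. At a distal *Sox5* start (chr6:144209115-144209739), WT ranks were 41.7, 20.1 and 21.3, B10 held no peak, and G7 held 1 at rank 1.35, so the region was called lost in B10 only. *Sox11*, a SoxC gene active in embryonic progenitors, had no peak over its start site in any library, and none of its 3 distant regions held a peak in G7. The strongest of these, 47.7 kb downstream, ranked 23.9, 12.0 and 8.24 in WT and 53.4, 51.3 and 43.9 in B10. The region 160.3 kb upstream ranked 15.8, 14.2 and 28.8 in WT and 13.4, 14.6 and 17.5 in B10. The *Sox11* regions are given after their values were seen.

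**Figure D4:**
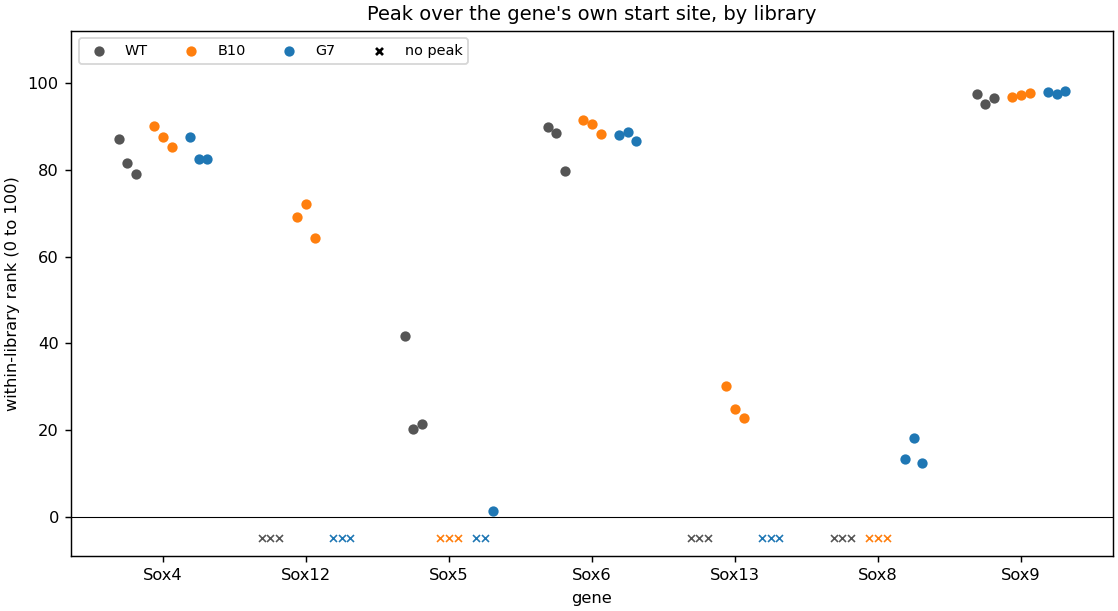
Within-library rank (0 to 100) of the peak over the gene's own start site in each library, for the 7 genes with such a region; crosses below 0 mark libraries with no peak. The start sites of *Sox4*, *Sox6* and *Sox9* hold a peak in all 9 libraries, and those of *Sox12* and *Sox13* in B10 only and of *Sox8* in G7 only.

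Regions with a peak in every library were then compared by rank, to ask whether strength changed where presence did not. Of the 127 such member regions, 17 ranked higher in B10 than in WT (13.4%, against 8.28% of all 47431 regions tested) and 2 ranked lower (1.57% against 4.60%), at an adjusted p below 0.05 in limma. The median difference was 5.12 points, and 0.70 over all regions. In G7, 8 ranked higher (6.30% against 4.06%) and 3 lower (2.36% against 3.55%), with medians of 0.97 and -0.03. B10 ranked above G7 in 5 (3.94% against 2.92%) and below it in 1 (0.787% against 1.90%). The replicate numbers were taken to pair the libraries, which this main fit left out. With the number as a block, 37 member regions ranked higher and 6 lower in B10 (16.0% and 9.005% of all regions). The counts were 15 and 9 in G7 (8.50% and 8.56%) and 18 and 3 in B10 against G7 (7.86% and 4.02%).

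**Figure D5:**
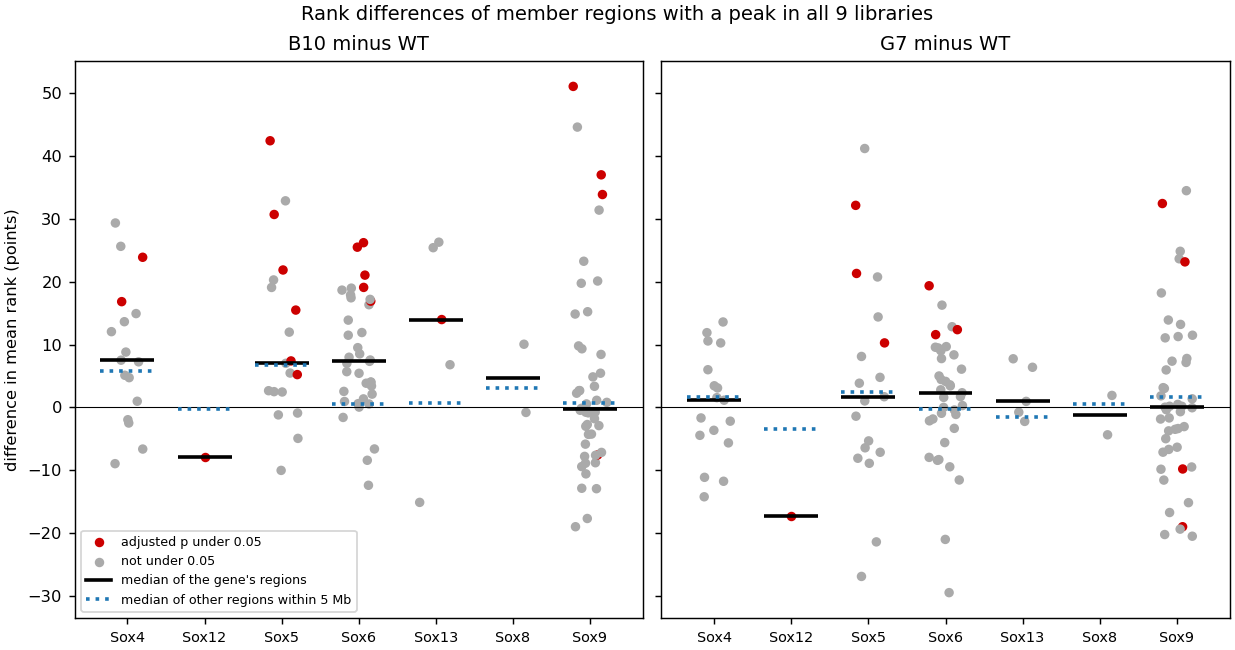
Difference in mean rank (percentile points) from WT of each member region with a peak in all 9 libraries, by gene, in B10 (left) and G7 (right); each point is 1 region, red where the adjusted p was under 0.05, black bars are medians of the gene's regions and dotted blue bars those of other regions within 5 Mb. In B10 the *Sox6* median (7.33) stands above its neighbours (0.60), while that of *Sox5* (7.02) is close to them (6.78).

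Whole stretches of chromosome shifted in rank, and these shifts stand beside the values. In B10 the regions around *Sox5* shifted by a median of 6.78 points (5.68 over chromosome 6) and those around *Sox4* by 5.72 (4.89 over chromosome 13), close to the medians of the *Sox5* regions (7.02) and the *Sox4* regions (7.52) themselves. The *Sox6* regions had a median of 7.33 where their neighbours had 0.60, and the *Sox9* regions -0.29 where theirs had 0.72. In G7 the regions around *Sox12* shifted by -3.48 (-3.90 over chromosome 2). After the chromosome median was subtracted, 12 members ranked higher and 5 lower in B10 (5.58% and 5.68% of all regions tested), and 5 and 3 in G7 (3.72% and 2.81%). The G7 counts, of 127 members, were about those shares.

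In the SoxC group, 2 of 17 *Sox4* regions ranked higher in B10 (11.8%, against 8.28% of all regions tested). The region 182.3 kb upstream (chr13:29135977-29136617, intergenic) ranked 67.2, 73.6 and 69.9 in WT, 89.7, 97.2 and 95.4 in B10 and 76.2, 83.6 and 82.6 in G7, so that the lines did not overlap. It was higher by 23.9 ± 2.94 points in B10 (adjusted p = 0.00367) and by 10.6 ± 2.94 in G7 (0.0767), and the block moved the latter to an adjusted p of 0.00772 (0.00772 to 0.493 over the alternatives). With the block it also passed between the clones (0.0508 without, 0.00654 with, up to 0.745 over the alternatives). The region 202.1 kb downstream ranked 59.2, 46.9 and 60.2 in WT, 72.0, 74.2 and 70.6 in B10 and 65.7, 71.1 and 60.3 in G7, higher by 16.8 ± 4.10 in B10 (0.0389). This call was lost with the block (0.0530, range over the alternatives 0.0288 to 0.656). The farthest *Sox4* region with a peak everywhere, 345.6 kb downstream, ranked 62.5, 39.7 and 45.5 in WT, 28.8, 39.5 and 52.6 in B10 and 51.4, 29.6 and 33.5 in G7, which overlapped.

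The 1 *Sox12* region with a peak everywhere, 7.7 kb upstream (chr2:152405785-152406773), ranked lower in both clones. It held ranks of 90.3, 91.0 and 89.7 in WT, 83.6, 81.8 and 82.1 in B10 and 75.3, 72.9 and 71.1 in G7, with no overlap between lines. It fell by 7.83 ± 1.35 points in B10 (adjusted p = 0.0122) and by 17.2 ± 1.35 in G7 (0.00157). In B10 this fall stood beside the peak over the start site of the same gene that only B10 showed.

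Of the SoxD genes, *Sox5* had 6 of 19 regions higher in B10 and 3 in G7, and 0 lower in either. The shares higher were 31.6% and 15.8%, against 8.28% and 4.06% of all regions tested. The region 101.0 kb downstream of a start (chr6:143845641-143846133, intronic), whose printed window holds the SOX core on both strands, ranked 24.7, 37.6 and 26.1 in WT, 71.1, 72.5 and 71.9 in B10 and 59.1, 62.8 and 62.8 in G7. It was higher by 42.4 ± 3.32 in B10 (adjusted p = 0.000818) and by 32.1 ± 3.32 in G7 (0.00332), with no overlap of the lines. The region 54.7 kb upstream of a start ranked 15.8, 14.2 and 13.3 in WT, 47.4, 38.0 and 49.9 in B10 and 34.2, 49.6 and 21.8 in G7, higher by 30.7 ± 6.63 in B10 (0.0264) and by 20.7 ± 6.63 in G7 (0.110). The region 30.2 kb downstream (chr6:143915837-143916878) ranked 64.7, 61.8 and 60.7 in WT, 58.0, 59.5 and 55.0 in B10 and 80.5, 84.1 and 86.5 in G7. It was higher in G7 by 21.3 ± 2.06 (0.00266), while B10 minus WT was -4.91 ± 2.06 (0.168). The farthest *Sox5* region, 387.2 kb downstream, ranked 68.8, 71.9 and 64.7 in WT, 83.1, 84.2 and 84.6 in B10 and 76.2, 80.6 and 79.4 in G7, higher by 15.5 ± 2.07 (0.00493) and 10.3 ± 2.07 (0.0294). By fold enrichment in place of q-value this region lost its call in both clones and turned its direction in G7.

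*Sox6* had 5 of 37 regions higher in B10 and 3 in G7, and 0 lower. The shares higher were 13.5% and 8.11%, against 8.28% and 4.06% of all regions tested. The intergenic region 280.2 kb downstream (chr7:115380723-115382190) ranked 64.5, 66.5 and 67.9 in WT, 86.0, 86.5 and 83.7 in B10 and 80.3, 78.3 and 77.5 in G7, higher by 19.1 ± 1.46 (adjusted p = 0.000792) and 12.4 ± 1.46 (0.00499). The region 82.8 kb downstream, over an exon, ranked 22.6, 17.8 and 26.4 in WT, 41.9, 44.5 and 43.5 in B10 and 37.4, 41.9 and 45.5 in G7, higher by 21.0 ± 2.76 (0.00459) and 19.3 ± 2.76 (0.00911). In both regions each KO library exceeded each WT library. In B10 alone, the intronic regions 58.9 and 6.8 kb upstream of starts were called. The former ranked 34.2, 48.2 and 36.9 in WT, 67.6, 63.3 and 64.7 in B10 and 48.0, 55.8 and 44.5 in G7 (25.5 ± 4.25, 0.0109, and 9.67 ± 4.25 in G7, 0.221). The latter ranked 63.3, 39.2 and 55.9 in WT, 76.4, 82.1 and 78.5 in B10 and 65.8, 68.2 and 73.2 in G7 (26.2 ± 5.74, 0.0275, and 16.3 ± 5.74 in G7, 0.139). The B10 libraries lay above those of WT in each. The farthest region with a peak everywhere, 403.1 kb downstream, ranked 78.1 to 87.9 in all libraries and differed by 2.12 ± 2.69 in B10 (0.672).

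*Sox13* had 1 of 5 regions higher in B10 (20%, against 8.28% of all regions tested). This region, 7.2 kb downstream of a start, ranked 38.1, 35.8 and 38.1 in WT, 45.0, 53.0 and 55.8 in B10 and 44.6, 43.3 and 43.3 in G7. It was higher by 14.0 ± 2.64 points in B10 (adjusted p = 0.0169) and by 6.39 ± 2.64 in G7 (0.196). The farthest *Sox13* region, 67.2 kb upstream (chr1:133491619-133493840), ranked 32.5, 53.0 and 53.3 in WT, 65.5, 73.7 and 75.7 in B10 and 44.2, 59.6 and 58.2 in G7. The difference of 25.4 ± 6.76 in B10 did not pass (0.0510) and passed with the block (0.00458, range over the alternatives 0.00458 to 0.279), as did B10 against G7 (17.7 ± 6.76, 0.201 without and 0.0193 with the block, up to 0.952 over the alternatives). For each replicate number the B10 value was the highest of the lines.

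In the SoxE group, neither of the 2 *Sox8* regions tested passed in either clone (with the block, 1 passed in B10), and its farthest region, 30.1 kb downstream, ranked 84.4, 82.8 and 82.8 in WT, 81.8, 83.5 and 82.3 in B10 and 76.9, 80.0 and 80.1 in G7. *Sox9* had 3 of 46 regions higher and 1 lower in B10, and 2 higher and 2 lower in G7. The shares higher were 6.52% in B10 and 4.35% in G7, against 8.28% and 4.06% of all regions tested. The shares lower were 2.17% and 4.35%, against 4.60% and 3.55%. The region 352.4 kb upstream (chr11:112429007-112429816) ranked 9.89, 20.8 and 8.24 in WT, 72.1, 57.6 and 62.3 in B10 and 46.5, 32.7 and 30.5 in G7, with no overlap. It was higher by 51.0 ± 5.77 in B10 (adjusted p = 0.00266) and by 23.6 ± 5.77 in G7 (0.0534, with the block 0.0414, range over the alternatives 0.0414 to 0.331). The region 757.9 kb upstream (chr11:112023217-112024315) ranked 64.8, 45.7 and 39.6 in WT, 92.2, 84.6 and 84.3 in B10 and 90.6, 77.6 and 79.2 in G7, higher by 37.0 ± 6.74 (0.0148) and 32.4 ± 6.74 (0.0322). Every KO library exceeded every WT library there.

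Among the other *Sox9* regions, that 326.8 kb downstream, in an intron of *2610035D17Rik*, ranked 31.6, 32.4 and 25.3 in WT, 50.1, 47.5 and 51.9 in B10 and 65.3, 51.4 and 42.0 in G7. It was higher by 23.1 ± 5.46 in G7 (adjusted p = 0.0480) and by 20.1 ± 5.46 in B10 (0.0543, with the block 0.0380, range over the alternatives 0.0135 to 0.527). Lower ranks were called at 3 further regions. The region 429.8 kb upstream ranked 93.3, 93.2 and 96.8 in WT, 94.6, 95.1 and 95.2 in B10 and 83.9, 84.8 and 85.2 in G7, and fell by 9.77 ± 1.28 in G7 (0.00683). The region 170.6 kb upstream ranked 90.4, 93.5 and 92.5 in WT, 84.3, 85.1 and 84.4 in B10 and 89.4, 89.1 and 88.8 in G7, and fell by 7.55 ± 1.15 in B10 (0.00792). The region 64.9 kb downstream ranked 60.4, 50.5 and 43.8 in WT, 41.7, 46.9 and 37.9 in B10 and 32.8, 29.9 and 35.1 in G7, and fell by 18.9 ± 4.31 in G7 (0.0425).

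The farthest *Sox9* region with a peak everywhere, 837.2 kb upstream (chr11:111943981-111945039), shows the pairing of replicate numbers most plainly. Its ranks were 52.6, 20.8 and 20.5 in WT, 41.5, 3.42 and 22.7 in B10 and 76.4, 43.2 and 48.7 in G7, with replicate 1 the highest in each line. G7 minus WT was 24.8 ± 13.7 (adjusted p = 0.327) and passed with the block (0.0157, range over the alternatives 0.0157 to 0.741), as did B10 against G7 (-33.6 ± 13.7, 0.227 without and 0.0109 with the block, up to 0.612 over the alternatives).

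Single libraries also moved the rank counts. In B10, 28 members ranked higher and 4 lower without WT replicate 1 (11.5% and 4.10% of all regions tested), and 11 ranked higher without B10 replicate 1 (4.40%). In G7, 4 ranked higher without WT replicate 3, B10 replicate 2, B10 replicate 3 or G7 replicate 2 (2.30%, 2.92%, 3.08% and 2.06%), and 5 without G7 replicate 1 or 3 (2.24% and 1.86%). B10 ranked above G7 in 3 without WT replicate 3, B10 replicate 1 or G7 replicate 2 or 3 (2.11%, 1.38%, 1.64% and 1.12%), and in 2 without B10 replicate 2 or 3 (1.02% and 1.36%). Some of the calls named above rested on single libraries as well. The call of *Sox4* 202.1 kb downstream was lost without WT replicate 2 or 3, any B10 replicate or G7 replicate 1 (adjusted p up to 0.114). That of *Sox5* 54.7 kb upstream was lost without WT replicate 2 or 3 or B10 replicate 1 or 3 (up to 0.0829), and that of *Sox5* 387.2 kb downstream in G7 without WT replicate 1 or 3, B10 replicate 2 or 3 or G7 replicate 2 or 3 (up to 0.0956). That of *Sox6* 6.8 kb upstream was lost without WT replicate 3 or any B10 replicate (up to 0.0891), and that of *Sox13* 7.2 kb downstream without WT replicate 2 or 3 or B10 replicate 2 (up to 0.0612). For *Sox9* 757.9 kb upstream, the B10 call was lost without WT replicate 2 or B10 replicate 1 (up to 0.0533) and the G7 call without any library but WT replicate 1 or B10 replicate 1 (up to 0.101). The G7 calls of *Sox9* 64.9 and 326.8 kb downstream each remained without 1 library only, WT replicate 3 and G7 replicate 3 respectively (up to 0.117 and 0.141). All other calls against WT named here remained without any 1 library. These were *Sox4* 182.3 kb upstream, *Sox12* 7.7 kb upstream in both clones, *Sox5* 30.2 kb downstream in G7, 101.0 kb downstream in both clones and 387.2 kb downstream in B10, *Sox6* 58.9 kb upstream in B10 and 82.8 and 280.2 kb downstream in both clones, and *Sox9* 429.8, 352.4 and 170.6 kb upstream. None of them remained under all 18 alternatives. Of the 30 called single-region differences, those between the clones included, 15 kept their call by rank of fold enrichment. By quantile-normalized log2 fold enrichment 12 kept it, and without replicate 2 or 3 of every line 2 and 1 did. The highest adjusted p was 0.873 for *Sox9* 170.6 kb upstream in B10 and 0.573 for *Sox12* 7.7 kb upstream in B10.

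Further *Sox* genes and genes of cartilage were counted for context. None of 12 other *Sox* genes (*Sox1*, *Sox2*, *Sox3*, *Sox7*, *Sox10*, *Sox14*, *Sox15*, *Sox17*, *Sox18*, *Sox21*, *Sox30*, *Sry*) held a peak over a start site in any library. Of the 42 regions nearest to them, 3 were gained in both clones (7.14%, against 2.97% of all consensus regions), all near *Sox2*. In both clones 1 was lost (2.38% against 4.36%), near *Sox7*. Of 122 regions nearest to 15 genes of cartilage, among them known targets of SOX9, 13 were gained in both clones (10.7% against 2.97%). In both clones 3 were lost (2.46% against 4.36%). The members themselves were gained in both at 5.76%, below either of these sets, so gains were not particular to them. The gains lay near *Col11a1* (6), *Hapln1* (3), *Col2a1*, *Col9a1*, *Matn3* and *Cnmd* (1 each), which encode collagens and other proteins of cartilage, and all 3 losses lay near *Prg4*, which encodes the joint lubricant lubricin. In the rank fit, 14 of the 60 target regions with a peak everywhere ranked higher in B10 (23.3%) and 6 in G7 (10.0%). Over all regions tested the shares were 8.28% and 4.06%. Lower ranks were called at 1 and 0 (1.67% and 0%, against 4.60% and 3.55%).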

How the data were processed

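ATAC-seq was done on 9 libraries of C3H/10T1/2 MPCs (3 WT, 3 B10, 3 G7), grouped by their own labels. The authors aligned reads to mm10 and called peaks with MACS2 in each replicate alone, in paired-end mode (version not given in the sources used here). The deposited lists give, per peak, a score (not used), a fold enrichment (a ratio of signal to background) and −log10 values of the p-value and the q-value, made by the authors. The lowest −log10 q-value was 1.30 to 1.31, a q-value threshold of 0.05. Depth is not given by the lists, so no count test and no interval was computed.

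Touching peaks were merged and regions kept with a peak in 2 of 3 libraries of a line, and each region was given to the nearest protein-coding start (GENCODE M21). Promoters reach 3 kb to either side of any transcript start. Ranks of −log10 q-values within a library were fitted with limma 3.58.1 in R 4.3.3 over all 47431 regions with a peak in all 9 libraries, with Benjamini-Hochberg adjustment, and the script was tested on simulated data. A permutation test of 3 against 3 libraries cannot go below p = 0.1, so none was used. Other steps used Python 3.11.15 with pandas 2.3.3, and sequences come from GRCm38. All 9 same-number pairs of libraries from different lines deviated together (correlation of deviations from the line means 0.31 to 0.66), so the numbers were taken to pair the libraries. Pairs of replicate 2 with replicate 3 also deviated together (0.21 to 0.31), while those of replicate 1 with either went the other way (-0.56 to -0.36). Much of the pairing was thus replicate 1 against the rest. The main fit had no block.

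Regions were named where they covered a start site, were called in both clones, had the 2 largest called differences per gene, clone and direction, or were the farthest of a gene with a peak everywhere. Members and lists were chosen with earlier results of these data known. Alternatives were another peak threshold, equal peak numbers, other rules for overlap and nearest gene, other rank scales, and libraries left out.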

Additional observations from a re-analysis of the deposited data

Results flagged for a closer look

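A difference between the clones themselves was found at 6 member regions with a peak in all 9 libraries, by the B10 against G7 contrast of the same limma fit (adjusted p below 0.05). *Sox12* 7.7 kb upstream differed by 9.41 ± 1.35 points (adjusted p = 0.0121), with a fall in both clones that was larger in G7. *Sox5* 30.2 kb downstream differed by -26.2 ± 2.06 (0.00183), higher in G7. *Sox9* 429.8 kb upstream differed by 10.3 ± 1.28 (0.00744), lower in G7. *Sox9* 352.4 kb upstream differed by 27.4 ± 5.77 (0.0442), a rise that was larger in B10, and this call remained only without G7 replicate 1 when single libraries were left out (adjusted p up to 0.143). *Sox6* 273.5 kb downstream, an intergenic region (chr7:115388328-115388910) given after its values were seen, differed by 27.0 ± 5.11 (0.0308). Its ranks were 38.8, 50.8 and 37.4 in WT, 67.2, 56.6 and 59.0 in B10 and 40.9, 26.4 and 34.4 in G7, and the call was lost without any 1 of the B10 replicates or G7 replicate 2 or 3 (up to 0.101). *Sox6* 280.2 kb downstream differed by 6.71 ± 1.46 (0.0491), which the block moved to 0.0522 (range over the alternatives 0.0478 to 0.595), and the call remained only without WT replicate 1.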

How the results depend on the processing

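The lists hold no read counts, so a region without a peak may lie just under detection, and single libraries moved most counts. With the replicate number as a block, the rank counts became 37 higher and 6 lower in B10, 15 and 9 in G7, and 18 and 3 for B10 against G7. Among the 30 called single-region differences the block ended 2 calls. It added the calls given with it in the report and changed no other call named here. With 1 library, or 1 replicate number of every line, left out, the counts ranged from 30 to 77 gained and 3 to 11 lost in B10. They ranged from 15 to 44 and 5 to 17 in G7, and from 9 to 29 and 1 to 5 in both. Over all consensus regions the shares then ranged from 6.09% to 15.6% gained and 3.88% to 9.87% lost in B10. In G7 they ranged from 3.26% to 9.26% and 3.83% to 9.79%, and in both from 1.83% to 5.75% and 2.14% to 5.08%. Without replicate 2 of every line, 32 were gained in B10 (6.90%). With the same libraries left out, rank counts ranged from 1 to 31 higher and 0 to 6 lower in B10. They ranged from 0 to 14 and 0 to 5 in G7, and from 0 to 13 and 0 to 2 for B10 against G7. Over all regions tested the shares ranged from 0.385% to 11.5% and 0.233% to 5.57% in B10. In G7 they ranged from 0% to 5.83% and 0% to 3.93%, and for B10 against G7 from 0% to 3.40% and 0% to 2.04%. Without WT replicate 1 alone, 28 were higher in B10 (11.5%) and 7 higher in B10 than G7 (3.40%). Within 50 kb of a start (61 regions), 9 were gained and 1 lost in B10, 6 and 4 in G7, and 1 and 0 in both. All consensus regions within 50 kb had shares of 8.06% and 7.23%, 5.28% and 6.70%, and 2.61% and 4.06%. With start sites of every gene type (99 regions), the counts were 20 and 2, 8 and 3, and 4 and 0. The shares over all regions were 10.4% and 7.58%, 5.69% and 7.42%, and 2.97% and 4.36%. With peaks that cover at least 50% of the region, 11 were lost in B10 (9.83% of all consensus regions). At a −log10 q-value of at least 5, 15 were gained in G7 (3.43%) and 8 in both (1.77%). With replicate 1 libraries alone, an alternative chosen after seeing the data, 15 were lost in B10, 51 gained and 26 lost in G7, and 34 gained and 11 lost in both. By rank of fold enrichment, 11 were higher and 0 lower in B10 (4.32% and 2.36% of all regions tested). In G7 1 was lower (1.51%), and 2 were higher in B10 than G7 (1.05%). By quantile-normalized log2 fold enrichment, 6 were higher and 1 lower in B10 (3.07% and 3.20%), and 1 higher in B10 than G7 (0.799%). With absent peaks set to rank 0 (295 regions), the counts were 49 and 5 in B10, 19 and 8 in G7, and 24 and 3 between the clones. The shares over all regions were 9.82% and 6.10%, 4.11% and 5.02%, and 5.25% and 2.35%. With the chromosome median subtracted, 5 were lower in B10 (5.68%), 5 higher in G7 (3.72%) and 3 higher in B10 than G7 (1.68%). With a trended and robust variance, 9 were higher and 2 lower in B10 than G7 (4.09% and 2.31%). With gene-level start sites (120 regions), 5 were higher in G7 (4.06%), 3 higher in B10 than G7 (2.92%) and 0 lower (1.90%). Of 540 recomputed single-region differences, 358 kept their call, 179 lost it and 3 turned direction, all at *Sox5* 387.2 kb downstream: B10 by quantile-normalized log2 fold enrichment (-0.0023), and G7 by rank of fold enrichment (-8.23 points) and by quantile-normalized log2 fold enrichment (-0.20). The cause was not tested.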
